A study of Mus musculus with 70 samples.

Results

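The cytosolic ribosomal protein genes encode the proteins that, together with ribosomal RNA, build the small and the large subunit of the ribosomes of the cytoplasm. They were taken by symbol: genes named Rpl or Rps with a number and an optional letter, the stalk genes Rplp0, Rplp1 and Rplp2, and Rpsa. Names of pseudogenes and retrogenes, the S6 kinases and 2 further genes were left out. The rule by symbol also left out Rps3a1, a gene of the small subunit, and Rpl36al, Rpl22l1 and Rpl7l1, so the set is not complete. The rule gave 79 genes out of the 24435 genes of the table. Of these, 32 belong to the small subunit, 44 to the large subunit and 3 to the stalk of the large subunit. Rpl10l, a testis paralog of Rpl10, had no count in any library, so 78 genes had counts, and 74 reached 10 CPM (a gene's counts scaled to the TMM-adjusted library total, within each of the sets named below) in every library.

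RNA was sequenced from 70 libraries of dendritic cells and monocytes sorted from the spleen of mice aged 8 to 10 weeks, 5 h after an intraperitoneal PBS injection. The strains were NOD, a mouse model of autoimmune diabetes, and B6g7, a C57BL/6 strain that carries the MHC class II haplotype of NOD. In a second set both strains lacked Rag1, and with it mature B and T cells, and the control there was B6 Rag1-/-, which is not named as a g7 strain. Both sets held plasmacytoid dendritic cells (pDC), monocyte-derived ones (moDC), and the 2 kinds of conventional dendritic cell, cDC1 and cDC2, and the Rag-sufficient set also held monocytes, which gives 18 groups. Each group of cDC1 and cDC2 had 6 libraries in NOD and 6 in B6g7, moDC had 5 and 6, and pDC and monocytes had 3 and 3. Rag1-/- groups had 3 libraries each, except B6 Rag1-/- moDC with 2.

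Totals were 12806956 to 19743162 counts in the 47 Rag-sufficient libraries and 14671299 to 20642503 counts in the 23 Rag1-/- libraries. Rag-sufficient libraries came from 537 to 5000 cells and a second sequencing run, and Rag1-/- libraries from 6575 to 14529 cells and the first run, so Rag1 genotype, run and cell number cannot be told apart. The labels do not say that libraries of a group came from separate animals, and p-values measure the spread between these libraries, which may be technical. The RNA integrity number was under 7 in 2 libraries, both of B6g7 cDC2. Sorts of Rag-sufficient conventional cells and moDC took place on 10.26.2015 and on 01.05.2016, that of monocytes on the later date and that of pDC on a separate day. Rag1-/- libraries were sorted on 11.14.2014, 02.02.2015, 04.03.2015, 05.15.2015 and 06.15.2015, unevenly over the groups. Only in Rag1-/- cDC1 did both strains share all their dates, and 06.15.2015 held NOD Rag1-/- pDC alone. Marker genes fitted the labels in part. In Rag-sufficient libraries 10 cDC1 markers summed to 7330 to 9870 CPM in cDC1, 406 to 763 CPM in cDC2 and 3360 to 4000 CPM in pDC. There 9 pDC markers reached 17600 to 25100 CPM in pDC and at most 621 CPM in the other 4 cell types. The 9 monocyte markers reached 12700 to 19500 CPM in monocytes, 1460 to 3710 CPM in moDC and 8280 to 8660 CPM in B6g7 pDC. In B6 Rag1-/- pDC they had 3490 to 24700 CPM. The cDC2 markers did not separate cDC2 (2030 to 3330 CPM) from moDC (2410 to 8010 CPM), monocytes or pDC. In bulk RNA a lower share of cells of a kind and less RNA per cell cannot be told apart.

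Ribosomal proteins are made in near-equal amounts, because the subunits assemble with a single copy of almost every one of them and free proteins are degraded. Their mRNAs begin with a run of pyrimidines after a C, the terminal oligopyrimidine tract, through which the mTOR pathway and the La-related protein Larp1 set how strongly they are translated. Plasmacytoid dendritic cells, the main producers of type I interferon, are secretory cells rich in rough endoplasmic reticulum.

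The start sites of some of the genes described below are shown because a pyrimidine run at the start is the feature that the family is known for, although the windows hold it in only a part of the genes. Rpl27a, whose levels are not described below, is printed as well and has the longest marked run of the windows printed. Windows of RefSeq promoters (GRCm38.p6), from 40 bases before the annotated start to 15 after it on the strand of the gene, are printed 5′ to 3′, and capitals mark a run of at least 5 C or T that begins with C within 5 bases of the start.
Rps6, chr4:86857353-86857407, minus strand: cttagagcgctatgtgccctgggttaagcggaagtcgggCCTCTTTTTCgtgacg
Rpl27a, chr7:109519155-109519209, plus strand: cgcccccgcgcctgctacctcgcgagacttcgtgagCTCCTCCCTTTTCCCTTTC
Rps18, chr17:33955651-33955705, minus strand: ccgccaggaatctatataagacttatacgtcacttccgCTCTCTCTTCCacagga
Rpl31, chr1:39367811-39367865, plus strand: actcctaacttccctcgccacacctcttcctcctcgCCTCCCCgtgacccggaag
Rpl35a, chr16:33056413-33056467, plus strand: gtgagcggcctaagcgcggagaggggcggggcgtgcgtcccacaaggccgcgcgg
Rpl3l, chr17:24727786-24727840, plus strand: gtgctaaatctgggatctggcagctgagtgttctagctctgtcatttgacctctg
Rps18 and Rpl31, whose levels set them apart below, carry such a run, whereas the windows of Rpl35a and of Rpl3l, the muscle paralog of Rpl3, do not. RefSeq promoters were at hand for 59 of the 79 genes, as 70 windows. The run was found in 28.6% of them, against 14.8% of all 32851 promoter windows. Within 250 bases before to 50 after the start, on either strand, CCGGAAG stood in 35.7% of the windows of these genes and in 8.86% of all, AAGATGG in 15.7% and 6.34%, and GGGCGG in 57.1% and 35.7%, while TATAAA stood in 8.57% and 13.6%. These shares describe letters near annotated starts and do not show binding.

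Together 2.08% to 10.7% of a library's counts fell on the ribosomal protein genes, and the sort date moved this share more than strain did. In B6g7 cDC1 the share was 7.86%, 7.67% and 7.87% in the libraries of 10.26.2015 and 4.30%, 4.25% and 4.09% in those of 01.05.2016. In NOD cDC1 it was 6.52%, 7.40% and 6.98%, then 3.91%, 3.71% and 3.80%. Among Rag-sufficient libraries B6g7 moDC of the earlier date had the highest value, with 8.00%, 10.7% and 9.83%, against 4.28%, 3.86% and 4.47% later. So the dates did not overlap within any of these groups, and at each date the 3 B6g7 libraries of cDC1 lay above the 3 NOD libraries. Monocytes had 2.52%, 3.11% and 2.76% in B6g7 and 2.60%, 2.45% and 2.17% in NOD, with overlap.

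**Figure D1:**
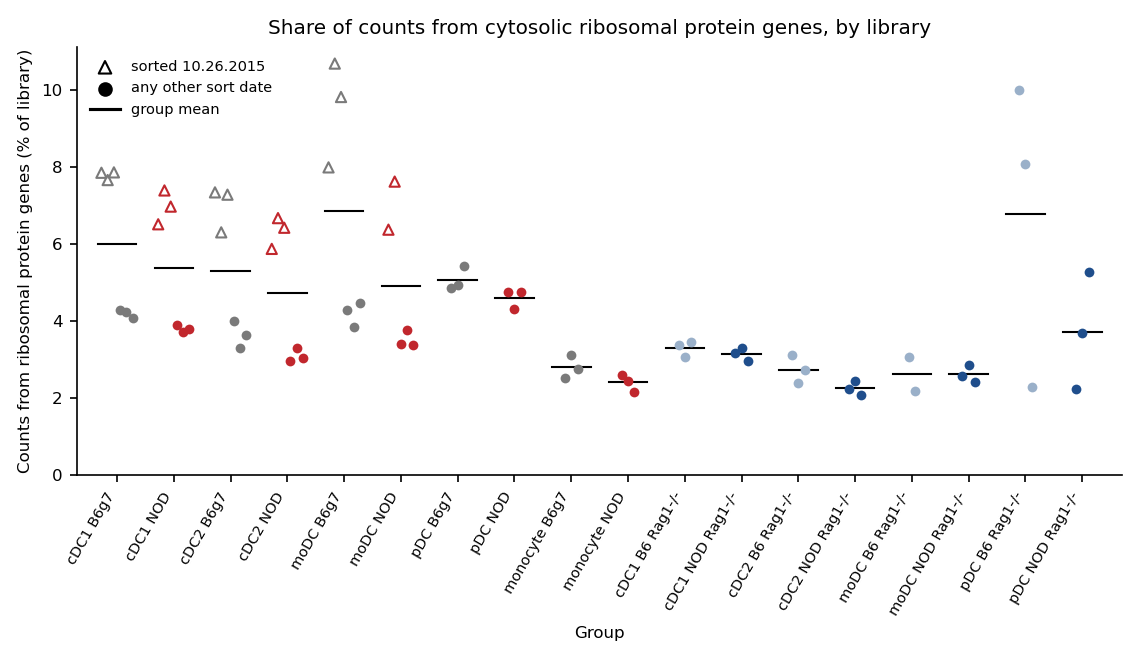
Share of each library's counts from the 79 cytosolic ribosomal protein genes (percent, y axis) for the 18 groups (x axis). Points are libraries, open triangles are those sorted on 10.26.2015, bars are group means, and colours separate B6g7 (grey), NOD (red), B6 Rag1-/- (light blue) and NOD Rag1-/- (dark blue). The triangles lie between 5.88% and 10.7%, above every other library of their cell type, and pDC of B6 Rag1-/- spread from 2.30% to 10.0%.

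A test of the date, added after the data had been seen, found 77 of 78 genes lower on 01.05.2016 than on 10.26.2015 over cDC1, cDC2 and moDC, where 32.1% of all genes were lower and 38.9% higher. The log2 difference had a median of -1.63 over the ribosomal protein genes and ran from -2.33 to -0.58, against a median of 0.12 over all genes. Libraries of the earlier date came from 2000 cells or fewer, so day and cell number cannot be told apart. Rag-sufficient strains were compared within sort dates, as planned before this test, because each sort date of a cell type held both strains. Cell number still differed between strains within some dates. On 01.05.2016 cDC1 libraries held 5000 cells in B6g7 and 3021 to 3384 in NOD, so strain and cell number cannot be told apart there. On 10.26.2015 moDC libraries held 1091 to 2000 cells in B6g7 and 537 to 1319 in NOD.

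In the Rag1-/- set the share was 2.08% to 3.47% in cDC1, cDC2 and moDC. It was 10.0%, 8.10% and 2.30% in the pDC libraries of B6 Rag1-/- and 2.23%, 3.69% and 5.27% in those of NOD Rag1-/-. These pDC libraries stand apart from each other within either strain. Other groups of genes moved with them: 9 pDC markers summed to 44300, 45200 and 12700 CPM in the B6 libraries and to 10200, 9040 and 21200 CPM in the NOD libraries, in the same order. Monocyte markers in the B6 libraries summed to 16400, 24700 and 3490 CPM, and the share of the mitochondrial ribosomal protein genes was 0.95%, 0.916% and 0.34%. The part of these differences in the results on pDC was not tested, and results of the Rag1-/- set are given with and without the pDC libraries.

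Levels per length covered a wide range, although the proteins are needed in like amounts. Over all libraries the mean level per kb of coding sequence was highest for Rpl41, at 11460 CPM per kb, followed by Rps29 at 4517 CPM per kb. Rpl41 is short, with 75 coding bases, and a level per kb rests on few bases there. Lowest were 3 genes: Rpl39l, a testis paralog, at 1.71 CPM per kb, Rpl3l at 14.5 and Rpl30 at 118.5 CPM per kb. Rps4l, which RefSeq lists as a noncoding transcript, has no level on this scale.

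Reads of some genes may be shared with near-identical copies. Rps27 has the copy Rps27rt, which had 583350 counts of its own over all libraries. Counts were also found for the 13 symbols close to the rule but outside it, Rps27rt among them. These were pseudogenes, retrogenes, paralogs and Rps3a1, a gene of the small subunit with 1236250 counts. The counts were estimated, so reads of such copies were divided between them, and the values of single genes with close copies are uncertain.

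**Figure D2:**
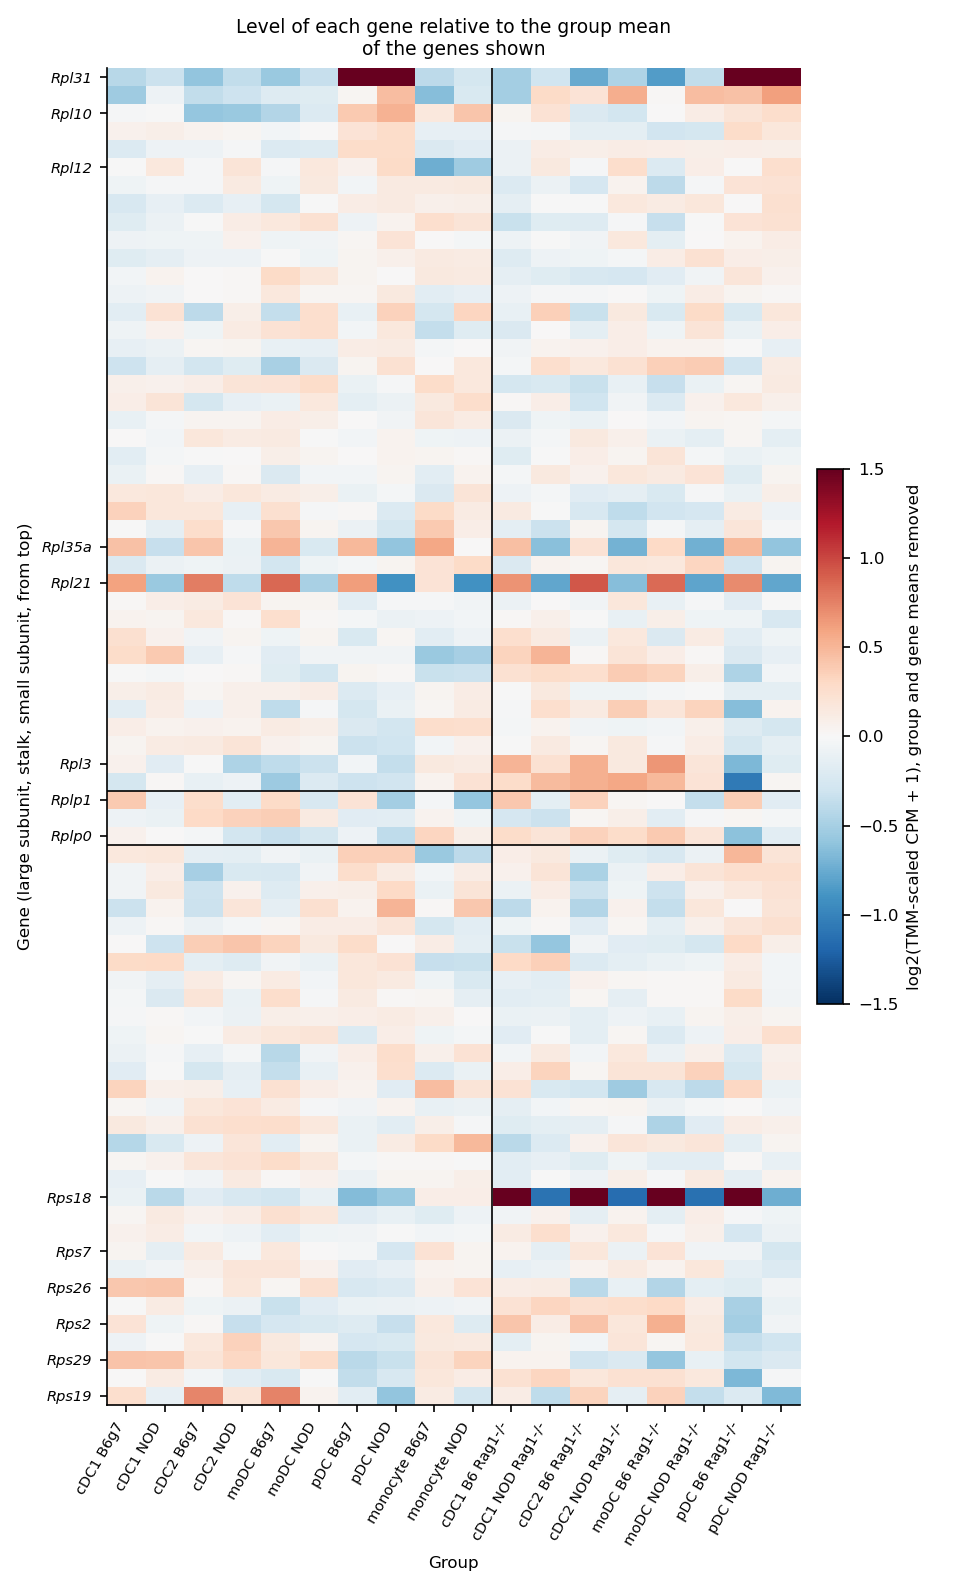
Level of each of the 74 ribosomal protein genes with at least 10 CPM in every library (rows, some of them labelled, with the large subunit, stalk and small subunit separated by lines) in the 18 groups (columns, Rag1-/- to the right of the line), as log2(TMM-scaled CPM + 1) after the group mean and then the gene mean were taken off. Rpl31 stands out in the 4 pDC groups, Rps18 in the 4 groups of B6 Rag1-/-, and Rpl21 and Rpl35a are higher in B6g7 and B6 Rag1-/- than in NOD and NOD Rag1-/- in every cell type.

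The ribosomal protein genes were higher in cDC1 than in cDC2, the neighbouring conventional dendritic cell of the spleen. In the Rag-sufficient set 72 of 78 passed the test as higher and 1 as lower, where 29.8% of all genes were higher and 32% lower (edgeR quasi-likelihood test, adjusted p under 0.05), and the median log2 difference was 0.46 (all genes -0.06). Among the small subunit and among the large subunit the medians were 0.49 and 0.45. NOD libraries of 01.05.2016 held 3021 to 3384 cells in cDC1 and 5000 in cDC2. In B6g7 both held 5000 on that date, and all held 2000 on 10.26.2015. The gene that was lower in cDC1 is Rpl39l, with a log2 difference of -3.17 ± 0.77 (SE) at levels under 2 CPM. Without any scaling the median of all genes was -0.33 and that of the ribosomal protein genes 0.18, with 46 of 78 higher and 5 lower. At that setting 68.6% of all genes were called in either direction, so the number called is not above that share.

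Of the genes that were higher in cDC1, Rpl10 differed most. It is the protein that joins the large subunit last and completes its catalytic site. Rpl10 had 811 to 2930 CPM in the 12 Rag-sufficient cDC1 libraries and 376.6 to 1569 CPM in cDC2. Within each sort date all cDC1 libraries lay above all cDC2 libraries. The log2 difference was 1.04 ± 0.06 (adjusted p = 8.44e-21).

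Rpl10 was also higher in cDC1 in the Rag1-/- set, where cDC1 and cDC2 did not overlap. Rpl10 had 847, 902.6 and 999 CPM in B6 Rag1-/- cDC1 and 883.2, 963.6 and 961.8 CPM in NOD Rag1-/- cDC1. In cDC2 it had 612.4, 504 and 561.8 CPM, and 382.4, 420.9 and 425.9 CPM. The log2 difference was 0.95 ± 0.33 (adjusted p = 0.0453).

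In this set 3 of 77 genes passed as higher in cDC1 and none as lower, where 10.3% of all genes were higher and 12.7% lower, with a median of 0.54. Rpl3 was among them, with 0.61 (adjusted p = 0.0305). By edgeR at an unadjusted p under 0.05 there were 17 of 77, and the share of all genes at that threshold is not given. In a fit without the pDC libraries, added after the data had been seen, 71 of 77 were higher and none lower (19.4% and 18.7% of all genes). Markers of red pulp macrophages differed between these groups too: 9 of them summed to 2380 to 20900 CPM (median 9630) in B6 Rag1-/- cDC2 and to 685 to 5730 CPM (median 1090) in B6 Rag1-/- cDC1, and to 934 to 4400 CPM and 607 to 3000 CPM in NOD Rag1-/-. Their part in this result was not tested.

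Rag-sufficient moDC exceeded cDC2 as well, with 77 of 78 genes higher and 1, Rpl39l, lower (26.7% and 23.4% of all genes) and a median log2 difference of 0.46. On 10.26.2015 cDC2 libraries held 2000 cells, and moDC libraries 1091 to 2000 in B6g7 and 537 to 1319 in NOD. On 01.05.2016 cDC2 libraries held 5000 cells, and moDC libraries 3017 to 3292 in B6g7 and 3031 to 3398 in NOD. Cell type and cell number therefore cannot be told apart in this comparison. In the Rag1-/- set only Rpl3l passed of 77 (6.63% of all genes were higher and 5.35% lower), and the median was 0.24. Without the pDC libraries 15 passed as higher there and none as lower (13.2% and 10.5%). Rpl35 and Rpl36a, proteins of the large subunit, had Rag-sufficient log2 differences of 0.72 ± 0.09 and 0.68 ± 0.08 between moDC and cDC2.

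Monocytes had less of these mRNAs than the dendritic cells that derive from them. Against moDC of the same sort date, 53 of 78 genes were lower and 1, Rpl10, higher (26.8% and 27.3% of all genes), with a median of -0.32. Monocyte libraries held 5000 cells, and moDC libraries of that date 3017 to 3292 in B6g7 and 3031 to 3398 in NOD. Cell type and cell number therefore cannot be told apart here. Rpl12, which forms the base of the stalk, fell by 1.02 ± 0.09 on the log2 scale (adjusted p = 1.68e-12), and Rpl36a by 0.71 ± 0.11. For Rpl10 the difference was 0.23 ± 0.08 (adjusted p = 0.0135), and it turned to -0.05 without scaling.

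Between plasmacytoid dendritic cells and cDC1 the direction turned with the sort date of the cDC1 libraries, except for a few genes that were higher in pDC against both. The summed level of the ribosomal protein genes was 50360 to 58130 CPM in B6g7 pDC, below B6g7 cDC1 of 10.26.2015 (103400 to 106600 CPM) and above those of 01.05.2016 (37000 to 37870 CPM). NOD pDC had 42080 to 48090 CPM, between 80770 to 96640 CPM and 33220 to 34950 CPM in NOD cDC1. So pDC lay between the dates of cDC1 in both strains. Against the mean of both dates 48 of 78 genes were lower and 5 higher (37.9% and 33.6% of all genes), with a median log2 difference of -0.26. Against cDC1 of the earlier date, in a contrast added after the data had been seen, 74 were lower and 3 higher (33.7% and 30.9% of all genes), with a median of -1.03. Against the later date 3 were lower and 58 higher (41% and 34.3%), with a median of 0.48. Rps29 was lower against either date, by a log2 difference of -1.70 ± 0.13 and -0.47 ± 0.13, and so was Rps26, which lies at the mRNA exit of the small subunit, by -1.58 ± 0.11 and -0.28 ± 0.10. For Rps19 the difference was -1.47 ± 0.10 against the earlier date and 0.01 ± 0.10 against the later. The pDC were sorted on a day of their own, so cell type and sort date cannot be told apart here. In the Rag1-/- set 56 of 77 were higher in pDC and none lower (30.1% and 24.7% of all genes), with a median of 1.10. That count rests on libraries that stand apart: it was 27 without the third NOD Rag1-/- library and 36 without the first B6 Rag1-/- library.

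Higher in pDC in both sets, and against cDC1 of either date, were Rpl31, Rpl3l and Rps4l. Rpl31 is a protein at the rim of the exit tunnel of the large subunit. It had 1400, 1294 and 1589 CPM in B6g7 pDC and 1381, 1141 and 1366 CPM in NOD pDC. In cDC1 it had 223.4 to 777 CPM and in cDC2 134.7 to 528.1 CPM, so pDC did not overlap with either. Of the other Rag-sufficient libraries, 1 library of B6g7 moDC reached into the pDC range, at 1265 CPM.

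Rpl31 in the Rag1-/- set was 5521, 4201 and 458.7 CPM in B6 pDC and 495.9, 632.7 and 1819 CPM in NOD pDC, and 109.4 to 226.9 CPM in the other cell types. Although these pDC libraries differ widely, each lay above every library of the other types. The log2 difference from cDC1 was 1.73 ± 0.10 (adjusted p = 7.27e-20) in the Rag-sufficient set, with 0.94 ± 0.12 against the earlier date and 2.52 ± 0.12 against the later, and 3.09 ± 0.42 (adjusted p = 5.74e-06) in the Rag1-/- set. Against the mean of the 74 genes of the same group, Rpl31 stood at 1.18 to 1.37 on the log2 scale in the 4 pDC groups and at -1.17 to -0.59 in the other 14.

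Rpl31 is counted over 3 transcripts, and the main one took 73.1% to 79.0% of its counts in a pDC library. It took 77.4% to 94.4% in cDC1, cDC2 and moDC and 93.5% to 96.8% in monocytes. The second transcript took 14.0% to 17.3% in pDC and 1.88% to 5.02% in monocytes. Thus pDC had the lowest share of the main transcript, with a narrow overlap with NOD Rag1-/- cDC2. These shares are estimates, from reads that mostly fit more than 1 transcript.

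Rpl3l, which replaces Rpl3 in the ribosomes of heart and skeletal muscle, was near 0 in conventional dendritic cells, and was read in pDC with a difference between strains. It had 150.2, 143.4 and 143.5 CPM in NOD pDC and 2.96, 110.8 and 11.5 CPM in B6g7 pDC. All NOD libraries were above all B6g7 libraries, but the B6g7 libraries differ from each other by more than 1 order of magnitude. In Rag1-/- pDC it had 62.3, 57.3 and 193.8 CPM in NOD and 5.93, 3.15 and 2.36 CPM in B6, without overlap. Elsewhere it was between 0 and 2.06 CPM in cDC1 and cDC2, and reached 15.4 CPM in moDC and 5.86 CPM in monocytes.

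The log2 difference between strains in pDC was 1.80 ± 0.59 (adjusted p = 0.0382) in the Rag-sufficient set and 4.79 ± 0.87 (adjusted p = 0.00323) in the Rag1-/- set. The first ended under 4 of the tried settings and without any of 5 single libraries, and was 4.34 without the second B6g7 library. Rpl3 itself, which lies at the peptidyl transferase centre, went the other way. It had 751.7, 774.6 and 744.2 CPM in NOD pDC and 1063, 1168 and 1087 CPM in B6g7 pDC, without overlap, and fell by 0.55 ± 0.07 (adjusted p = 1.47e-07).

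**Figure D3:**
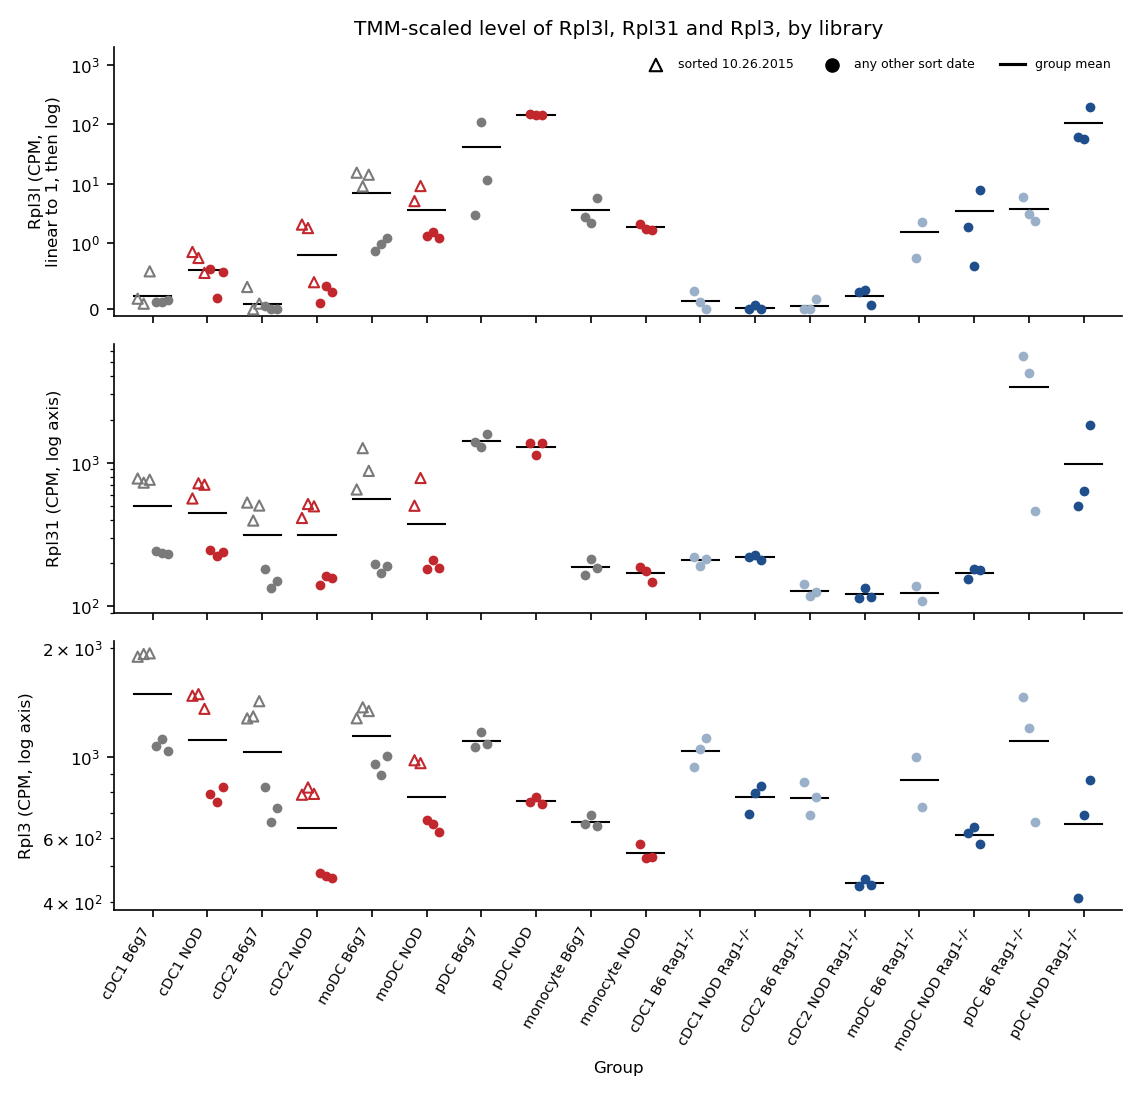
TMM-scaled level (CPM, y axes, logarithmic, for Rpl3l linear up to 1) of Rpl3l, Rpl31 and Rpl3 in every library of the 18 groups (x axis). Triangles are libraries sorted on 10.26.2015, bars are group means and colours are the strains as in the plot of shares. Rpl31 is highest in pDC, Rpl3l passes 50 CPM only in pDC, in all 6 libraries of NOD and NOD Rag1-/- and in 1 of B6g7, and Rpl3 is lower in NOD than in B6g7 at each sort date.

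Rps4l, a paralog of Rps4x, was higher in pDC than in cDC1 by 1.91 ± 0.22 in the Rag-sufficient set and by 2.70 ± 0.41 in the Rag1-/- set on the log2 scale. For Rpl30 the differences were 0.62 ± 0.11 and 1.29 ± 0.38, but the first was -0.45 ± 0.13 against cDC1 of the earlier date, 1.70 ± 0.14 against the later and -0.48 with the replicate number as a block. For Rpl10 they were 0.18 ± 0.07 and 1.06 ± 0.33, and the first was -0.60 ± 0.08 against the earlier date, 0.96 ± 0.08 against the later, -0.59 with the block and -0.02 without a sort date term. Testis paralogs stayed low: Rpl39l had at most 3.94 CPM in any library. Rps27l, a p53-responsive paralog of Rps27, had log2 differences of 0.88 ± 0.09 between cDC1 and cDC2 and 0.75 ± 0.10 between moDC and cDC2 in the Rag-sufficient set, and passed as higher in both.

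In Rag-sufficient mice the ribosomal protein genes were lower in NOD than in B6g7, most widely in moDC. In moDC 62 of 78 genes were lower and none higher, where 14.3% of all genes were lower and 16% higher. The median log2 change was -0.42 in moDC, -0.25 in monocytes, -0.20 in cDC2, -0.18 in pDC and -0.15 in cDC1, against medians of all genes between 0 and 0.02. In cDC2 27 of 78 were lower and 2 higher (10.2% and 11.8% of all genes), in cDC1 18 lower and none higher (8.93% and 11.5%), in monocytes 16 lower and none higher (7.52% and 7.81%) and in pDC 9 lower and 1 higher (7.40% and 5.15%). With the cell types fitted without sort dates, 0 to 2 of 78 genes passed in any of them, where 4.45% to 12.2% of all genes passed.

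**Figure D4:**
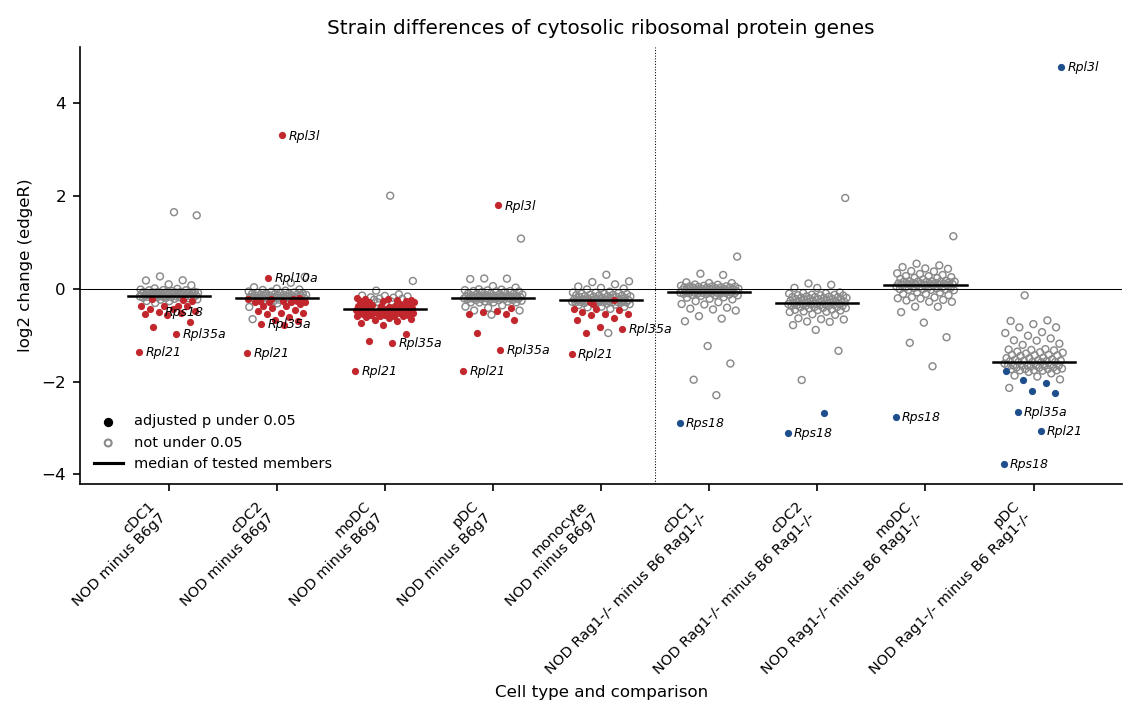
Log2 change (y axis, edgeR) of each tested ribosomal protein gene between NOD and B6g7 in 5 cell types and between NOD Rag1-/- and B6 Rag1-/- in 4 (x axis). Filled points have an adjusted p under 0.05 and bars are medians. Most points lie below 0 in the Rag-sufficient set, with Rpl21 at the bottom from -1.35 to -1.77, and Rps18 is the lowest in each Rag1-/- comparison, from -2.75 to -3.78.

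Of the 78 genes 8 were lower in NOD in all 5 cell types, against 184 of 13413 genes, or 1.37%. They were Rpl3, Rpl21 and Rpl35a of the large subunit, Rplp0 and Rplp1 of the stalk and Rps2, Rps7 and Rps19 of the small subunit. Further genes were lower in 4 cell types (4 genes), 3 (6 genes), 2 (12 genes) or 1 (34 genes), and 14 in none. In an overlap count added after the data had been seen, every NOD library lay below every B6g7 library in each of 8 strata of cell type and sort date for 12 genes, and for 1.24% of all genes. Those were 7 of the 8 genes just named, all but Rps7, together with Rpl5, Rpl37, Rpl37a, Rps24 and Rps28.

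Of the genes that were lower in NOD, Rpl21, a large-subunit protein, had the largest change in each of the 5 cell types. In cDC1 of the earlier date it had 1614, 1658 and 1664 CPM in B6g7 and 470.6, 600.8 and 552.8 CPM in NOD, and on the later date 468, 461.3 and 462.3 CPM against 231.1, 216.5 and 202.4 CPM. In pDC it had 710.8, 682.9 and 818.4 CPM in B6g7 and 228.1, 198.5 and 220.8 CPM in NOD. In monocytes it had 262, 331.3 and 282.4 CPM and 114.4, 114.8 and 103.8 CPM. The groups did not overlap within any date, although B6g7 cDC1 of the later date had less than NOD cDC1 of the earlier one.

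The log2 change of Rpl21 was -1.77 ± 0.17 in pDC, -1.76 ± 0.13 in moDC, -1.40 ± 0.17 in monocytes, -1.39 ± 0.12 in cDC2 and -1.35 ± 0.12 in cDC1 (largest adjusted p = 2.52e-08). It was called without every single library in turn. Rpl35a, a large-subunit protein mutated in some families with Diamond-Blackfan anemia, changed by -1.32 ± 0.18, -1.17 ± 0.13, -0.85 ± 0.17, -0.75 ± 0.12 and -0.98 ± 0.12 in the same order (largest adjusted p = 0.000364). In moDC it had 963.6, 1628 and 1266 CPM in B6g7 and 340.6 and 535.6 CPM in NOD on the earlier date, and 258.9, 242.6 and 303.4 CPM against 140.9, 152.5 and 148.6 CPM on the later. B6g7 was above NOD at both dates.

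The stalk recruits elongation factors to the ribosome. Rplp0, its anchor, changed by -0.24 to -0.54 over the 5 cell types and Rplp1 by -0.66 to -0.97, and all 10 changes were called. Rplp2, the partner of Rplp1, was called in moDC only, at -0.67 ± 0.13 (adjusted p = 6.25e-05), and had -0.19 to -0.38 in the other 4 cell types. Whether Rplp1 and Rplp2 differ from each other in this was not tested.

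In the small subunit Rps19, the gene most often mutated in Diamond-Blackfan anemia, had 3779, 6320 and 4750 CPM in B6g7 moDC and 1626 and 2300 CPM in NOD moDC on the earlier date. On the later date it had 1139, 940 and 1120 CPM against 541.8, 597.8 and 531.2 CPM, again without overlap. Its log2 change was -1.11 ± 0.10 in moDC, -0.78 ± 0.10 in cDC2, -0.55 ± 0.10 in cDC1, -0.66 ± 0.14 in pDC and -0.67 ± 0.14 in monocytes. Rps2, at the mRNA entry of the small subunit, changed by -0.41 to -0.61 and Rps7, which binds Mdm2, by -0.37 to -0.60. The calls of Rps2 and Rps7 in pDC were lost without the third B6g7 library (adjusted p = 0.1 and 0.0591), that of Rps7 also without the second NOD library (adjusted p = 0.0508), and that of Rps7 in monocytes without the second B6g7 or the third NOD library.

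Where the strain effect was tested for a difference between the 5 cell types, 5 of 78 genes passed (24.3% of all genes). They were Rpl3, Rpl3l, Rpl4, Rpl5 and Rps19. In the Rag1-/- set none of 77 passed (0.312%). Rpl3 fell by 0.69 ± 0.05 in cDC2 and by 0.28 ± 0.07 in monocytes. Rpl5, which carries 5S RNA into the large subunit, fell by 0.58 ± 0.08 in moDC and by 0.21 ± 0.08 in cDC1. Rpl4, which lines the exit tunnel, had 0.10 ± 0.05 in cDC1 without passing, and fell by 0.23 ± 0.06 in moDC.

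Few genes were higher in NOD, although most were not called in cDC1, cDC2, pDC and monocytes. In cDC2 the 2 higher genes were Rpl10a, a large-subunit protein, at 0.24 ± 0.09 (adjusted p = 0.0392), and Rpl3l, whose level there stayed within 0 to 2.06 CPM. The call of Rpl10a was lost without the 2 libraries of low RNA integrity, at 0.17 (adjusted p = 0.26). Rps6, the S6 kinase substrate, was lower in cDC2, moDC and monocytes, and Rps4x in moDC. Rpl41 was called in no cell type.

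Genes of the surrounding machinery were read from lists. In NOD moDC, where 14.3% of all genes were lower and 16% higher, 22 of 78 mitochondrial ribosomal protein genes were lower and 3 higher. They were 12 lower and 1 higher in monocytes (7.52% and 7.81% of all genes) and 11 and 2 in pDC (7.40% and 5.15%). In cDC2 they were 8 and 1 (10.2% and 11.8%) and in cDC1 5 and 5 (8.93% and 11.5%), so the lower calls there were near or under the share of all genes. Of 23 translation factors and other genes with an oligopyrimidine start 12 were lower and 1 higher in moDC, 5 and 0 in cDC2, and 2 and 3 in cDC1, against the same shares of all genes. Of 34 ribosome biogenesis genes 4 were lower and 5 higher in moDC, near the shares of all genes. The lists were not tested against each other.

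Markers of other cells differed between the same groups. In moDC 9 of 9 B cell markers, 8 of 8 neutrophil markers, 7 of 8 erythroid markers and 4 of 5 plasma cell markers were higher in NOD. Their sums were 427 to 2920 CPM in NOD and 81.7 to 342 CPM in B6g7 for B cells, 484 to 1710 against 1.62 to 216 CPM for neutrophils, and 2390 to 18000 against 49.4 to 1590 CPM for erythroid cells. Erythroid sums were higher in NOD than in B6g7 in all 5 cell types, among them monocytes (1060 to 3590 against 36.1 to 526 CPM) and pDC (1720 to 3210 against 29.7 to 569 CPM). In pDC no B cell or neutrophil marker passed, and Ngp, Ltf and Mmp8 were at 0, but monocyte markers summed to 2060 to 2230 CPM in NOD and 8280 to 8660 CPM in B6g7, and 9 of 9 markers of red pulp macrophages were lower in NOD, with sums of 93.5 to 141 CPM against 473 to 660 CPM. In monocytes 5 of 8 neutrophil markers were lower in NOD, opposite to moDC, with sums of 244 to 385 CPM against 1710 to 7570 CPM in B6g7. The part of these cells in the strain differences was not tested.

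In Rag1-/- mice 1 ribosomal protein gene, Rps18, was lower in NOD in all 4 cell types and showed a far larger change than in Rag-sufficient mice. Rps18 sits in the head of the small subunit. It had 618.9, 561.2 and 656.3 CPM in B6 Rag1-/- cDC1 and 86.3, 87.4 and 75.6 CPM in NOD Rag1-/- cDC1. In cDC2 it had 464.3, 396.9 and 417 CPM against 47.1, 53.1 and 48.8 CPM. In moDC it had 497.5 and 408 CPM against 64.9, 67.9 and 68.8 CPM.

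Every NOD library was below every B6 library, and this held in pDC too, where the range was wide; over all 4 cell types it held for Rps18 alone of the ribosomal protein genes, and for 1.04% of all genes. There Rps18 had 3319, 2536 and 337.9 CPM in B6 and 51.5, 101.1 and 298.1 CPM in NOD. The log2 change was -2.88 ± 0.59 (adjusted p = 0.0121) in cDC1, -3.10 ± 0.60 (adjusted p = 0.00553) in cDC2, -2.75 ± 0.62 (adjusted p = 0.0276) in moDC and -3.78 ± 0.62 (adjusted p = 0.00111) in pDC. Leaving out any 1 NOD library of cDC1, or any 1 library of moDC, raised the adjusted p to between 0.0597 and 0.184 with a change of -2.60 or lower.

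**Figure D5:**
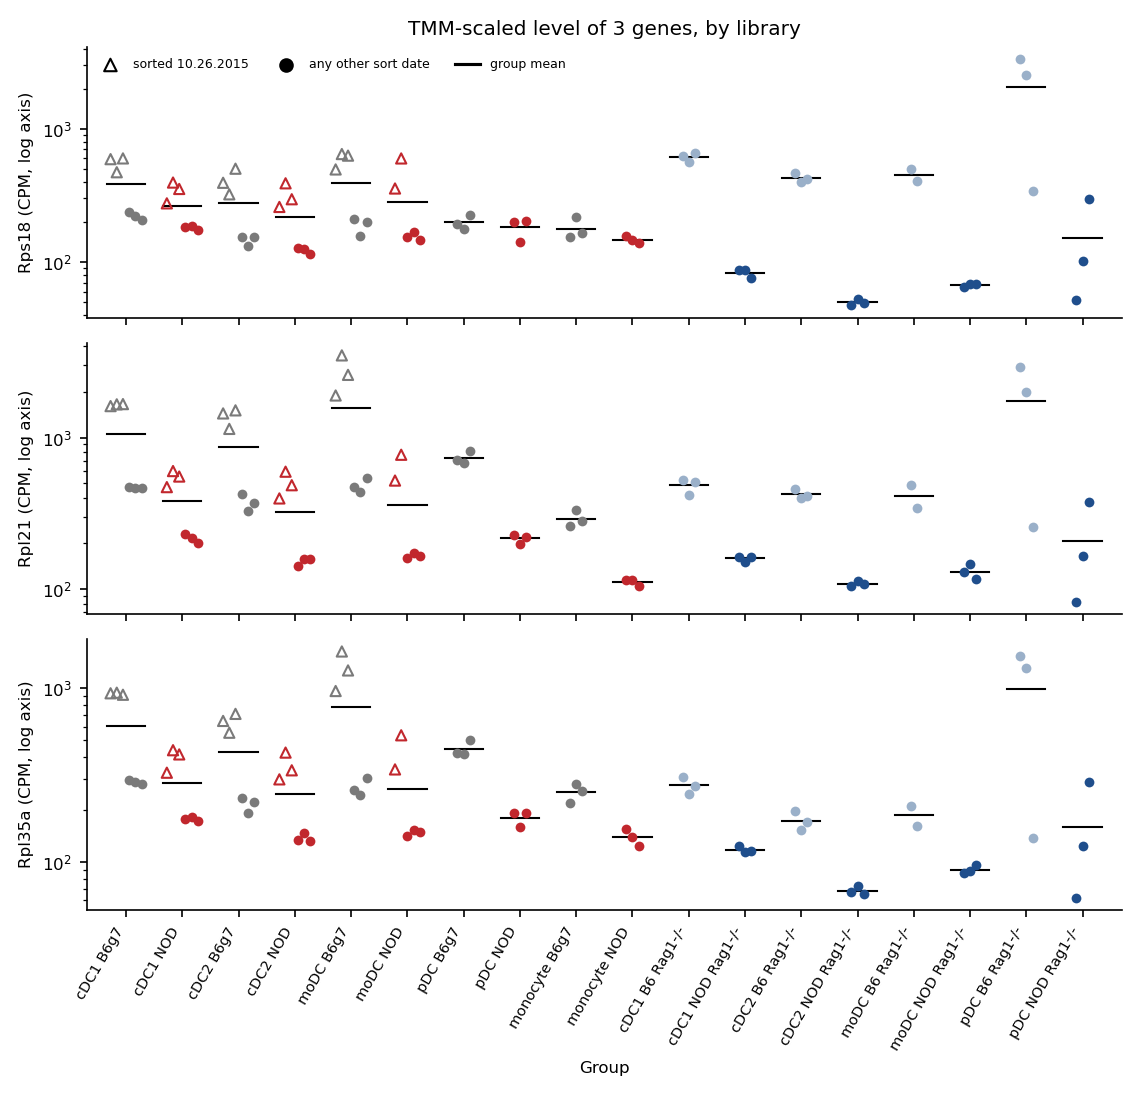
TMM-scaled level (CPM, logarithmic y axes) of Rps18, Rpl21 and Rpl35a in every library of the 18 groups (x axis). Triangles are libraries sorted on 10.26.2015, bars are group means and colours are the strains as in the plot of shares. Rps18 separates NOD Rag1-/- from B6 Rag1-/- but much less NOD from B6g7, and Rpl21 and Rpl35a are lower in NOD in both sets.

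In the Rag-sufficient set Rps18 was called in cDC1 only, at -0.49 ± 0.12 (adjusted p = 0.00252), where B6g7 had 591, 471.4 and 598.6 CPM on the earlier date and NOD 275.3, 394.4 and 353 CPM. On the later date B6g7 had 236.2, 220.4 and 206.7 CPM and NOD 184, 186.2 and 175.1 CPM. The strains did not overlap on either date, but on the later date alone the change was -0.30 and not called (adjusted p = 0.0727). With the replicate block it was -0.48 (adjusted p = 0.0612). In pDC it had 194.1, 176.4 and 226.5 CPM in B6g7 and 200.4, 142.2 and 202.9 CPM in NOD, with overlap, and the change was -0.13 ± 0.17. The difference of the strain effect between the 2 sets, tested over all libraries after the data had been seen, was -2.35 ± 0.44 in cDC1 (adjusted p = 0.00151), -2.78 ± 0.44 in cDC2 (adjusted p = 3.83e-05), -2.46 ± 0.47 in moDC (adjusted p = 0.00115) and -3.61 ± 0.51 in pDC (adjusted p = 4.11e-06). Rps18 was the only ribosomal protein gene to pass in any of the 4, where 0.210%, 1.11%, 0.585% and 1.35% of all genes passed.

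The 2 sets differ in the control strain as well as in Rag1, run and cell number, and these cannot be told apart. Relative to the mean of the 74 genes, Rps18 stood at 0.64 to 0.72 on the log2 scale in the 4 groups of B6 Rag1-/-, at -2.05 to -1.65 in those of NOD Rag1-/-, and at -1.57 to -0.81 in all 10 Rag-sufficient groups. So the B6 Rag1-/- groups are above all others and NOD Rag1-/- groups are below them. Rps18 lies on chromosome 17, with Vps52 between it and H2-K1, a class I heavy chain of the MHC.

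H2-K1 was lower in NOD Rag1-/- too, with log2 changes of -1.75, -2.41, -2.08 and -2.48 in cDC1, cDC2, moDC and pDC. Of the 12 nearest protein-coding genes, 6 on each side, 2, 1, 2 and 2 were lower in these cell types and none higher. In the Rag-sufficient set 0, 0, 2, 1 and 3 of them were lower in cDC1, cDC2, moDC, pDC and monocytes, with no change below -0.94. In cDC1 2 were higher, H2-K1 by 0.29 ± 0.08 (adjusted p = 0.00489) and Tapbp by 0.22 ± 0.07 (adjusted p = 0.014), and none was higher in the other cell types.

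Few other genes passed in Rag1-/- mice. In cDC1 1 of 77 was lower (0.898% of all genes) and none higher (0.769%), in moDC 1 lower (0.921%) and none higher (0.571%), and in cDC2 2 lower (1.26%) and none higher (1.07%), the second being Rps4l at -2.68 ± 0.58. By edgeR at an unadjusted p under 0.05 there were 4, 2 and 5 of 77. The share of all genes at that threshold is not given, so these counts are not read as a result. The medians were -0.06, 0.09 and -0.31. In pDC 8 were lower and 1 higher (2.71% and 1.87%), with a median of -1.57, and leaving out single libraries moved that count between 3 and 76.

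Without the pDC libraries the spread was smaller and Rpl21, Rpl35a and Rps19 passed as lower in NOD in each of the other 3 cell types. Rpl21 had 527.9, 420.6 and 506.2 CPM in B6 Rag1-/- cDC1 and 162.5, 151.3 and 163.7 CPM in NOD Rag1-/- cDC1. In cDC2 it had 458.3, 400.1 and 410.4 CPM against 104.1, 113.6 and 107.6 CPM. Its log2 change was -1.62 ± 0.15, -1.96 ± 0.15 and -1.67 ± 0.16 in cDC1, cDC2 and moDC (largest adjusted p = 1.85e-05), and the strains did not overlap.

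In the same fit Rpl35a changed by -1.24 ± 0.13, -1.33 ± 0.13 and -1.04 ± 0.14, Rps19 by -0.65 ± 0.16, -0.88 ± 0.16 and -0.73 ± 0.18, and Rps18 by -2.90 ± 0.13, -3.09 ± 0.13 and -2.75 ± 0.13. In all, 7 of 77 genes were lower in cDC1 (2.05% of all genes), 12 in cDC2 (3.01%) and 4 in moDC (2.67%), and none was higher (1.90%, 2.57% and 1.57%). Rplp1 was lower in cDC1 and cDC2, at -0.71 ± 0.16 and -0.70 ± 0.16. The test of the difference between sets did not pass for Rpl21 or Rpl35a in any cell type, with -0.22 ± 0.42 for Rpl21 in cDC1, an error too wide to show that the sets act alike.

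In NOD Rag1-/- the erythroid sums were 9880 to 12300 CPM in cDC1 and 8120 to 13300 CPM in moDC, against 409 to 3940 and 451 to 588 CPM in B6 Rag1-/-, and in cDC2 10500 to 20500 against 733 to 7990 CPM. Red pulp macrophage sums in cDC2 went the other way, with 934 to 4400 CPM in NOD Rag1-/- and 2380 to 20900 CPM in B6 Rag1-/-, and none of the 9 markers was called. Neutrophil sums in moDC were 665 to 12500 against 31.6 to 419 CPM. B cell sums were 12.8 to 95.4 CPM over cDC1, cDC2 and moDC of both strains, and Pax5 was at 0 in moDC. Their part in the changes of the Rag1-/- set was not tested.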

How the data were processed

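RNA of sorted mouse spleen cells was amplified with SMART-seq v4 and sequenced on a NextSeq 500, per the labels' protocols. The authors deposited expected counts per RefSeq transcript, estimated with RSEM per the submitters' processing notes; the aligner and build used were not given in the sources used here. Estimation divides reads between near-identical copies, and 48.2% of the entries above 0 were not whole within 0.01. The estimated counts of 35070 deposited transcripts were summed to 24435 genes and rounded. RefSeq named 34710 of them and the authors' own annotation 262, leaving 98 unnamed. The authors' post-processed tables were not used.

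Genes with at least 1 CPM in at least 3 libraries were tested with edgeR 4.0.16 (R 4.3.3; TMM scaling, robust quasi-likelihood F-test, two-sided, Benjamini-Hochberg adjustment over all genes tested per comparison, threshold 0.05). The Rag-sufficient fit held 47 libraries and 13413 genes, with a mean for each cell type and sort date and a strain effect for each cell type. The Rag1-/- fit held 23 libraries and 13137 genes, with 8 group means and no term for sort date. The coefficient of biological variation was 22.1% and 44.2%. An error after ± is the standard error of the log2 change, and levels are CPM. On simulated data, 96% of genes changed by 1 on the log2 scale were recovered in Rag-sufficient cDC1 (12470 genes run) and 2% in Rag1-/- cDC1 (12608 genes run), and 100% and 43% of those changed by 2.

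Named genes were the 3 largest rises and falls called per comparison at 10 CPM or more in the group with more, those lower in all 5 Rag-sufficient cell types, the 3 highest and lowest per coding kb, and paralog pairs, stalk genes, Rpsa, Rps6 and Rps27a; Rpl4, Rpl5, Rpl27a and others outside this rule were named after their values were seen. The genes, lists and markers were chosen with earlier results of these data known. Alternatives used DESeq2 1.42.0, limma 3.58.1, other scalings, filters and sort date terms, and left out single libraries. Replicate numbers were shared between strains, but deviations of same-numbered libraries correlated above 0.1 in 6 of 34 pairs. All 3 pairs did so in Rag1-/- cDC1, between 0.127 and 0.286. Same-numbered libraries there shared a sort date, so number and date cannot be told apart. The Rag1-/- fit did not use this pairing. In the other groups the numbers were treated as names. Some genes that this rule gives are not reported here.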

Additional observations from a re-analysis of the deposited data

Results flagged for a closer look

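Within 210 groups of 4 to 10 values, 5 single libraries lay far from the rest of their group. These groups pooled both sort dates, between which most levels differ, and a single library is then hard to flag. How often chance alone flags one is therefore not known, and the low number does not show that libraries agree. Groups with fewer than 4 libraries, Rag1-/- pDC among them, were not checked. All were low values of paralogs: Rpl3l at 0.574 CPM in the third B6g7 cDC1 library (others 0.0845 to 0.16) and 0.337 CPM in the first B6g7 cDC2 library (others 0 to 0.0856), and Rpl39l at 0.224 CPM in the fourth B6g7 cDC1 library (others 0), 0.69 CPM in the second NOD cDC1 library (others 0 to 0.205) and 3.94 CPM in the second NOD moDC library (others 0 to 0.154).

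The strain effect differed between the 5 Rag-sufficient cell types for 5 genes in edgeR's test of the difference: Rpl4 (F = 6.48, adjusted p = 0.00345), Rpl3 (F = 6.26, adjusted p = 0.00423), Rpl3l (F = 5.1, adjusted p = 0.0148), Rps19 (F = 4.43, adjusted p = 0.0236) and Rpl5 (F = 3.81, adjusted p = 0.0423). The strain effect on Rps18 was lower in the Rag1-/- set than in the Rag-sufficient set by a log2 difference of -3.61 in pDC, -2.78 in cDC2, -2.46 in moDC and -2.35 in cDC1.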

How the results depend on the processing

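Of 196 gene results, other settings gave 1421 values on the same side of the threshold, 275 that lost the call and 23 that changed sign; leaving out single libraries gave 2792 and 193, with no change of sign. The cause was not tested. No scaling turned Rps27a between cDC1 and cDC2 to -0.083 and Rpl10 between monocytes and moDC to -0.048. The sort of 01.05.2016 alone turned Rps27 between moDC and cDC2 to -0.016. The replicate block held no sort date term. Replicates 1 to 3 of cDC1, the only numbers in pDC and monocytes, were those of 10.26.2015, so this setting is not separate from the sort date. With this block Rpl10 turned to -1.23 between monocytes and moDC and to -0.59 between pDC and cDC1, and Rpl30 to -0.48 there. Without a sort date term Rpl10 had -0.70 and -0.019. For pDC against cDC1 of 10.26.2015 only, a choice added after the data had been seen, Rpl10 had -0.60 and Rpl30 -0.45. Against cDC1 of 01.05.2016 only, genes lower against both dates together turned to 0.33 (Rpl21), 0.32 (Rpl35a), 0.56 (Rpl10a), 0.014 (Rps19), 0.14 (Rplp1), 0.49 (Rpl35), 0.63 (Rpl12), 0.57 (Rpl36a), 0.036 (Rplp0), 0.37 (Rps7), 0.36 (Rplp2), 0.17 (Rps6) and 0.34 (Rps27a).

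Counts of called genes moved as follows, with the share of all genes called at the same setting in brackets. The replicate block gave 7 in cDC1 (14.4%), 11 in cDC2 (16.2%), 5 in pDC (8.72%) and 5 in monocytes (9.39%) between Rag-sufficient strains. Between Rag1-/- strains it gave 0 in moDC (1.41%) and 5 in pDC (3.62%), and it gave 1 for Rag1-/- cDC1 against cDC2 (23.2%). No sort date term gave 0, 2, 2, 0 and 0 in cDC1, cDC2, moDC, pDC and monocytes (8.51%, 9.62%, 12.2%, 4.45% and 4.6%). It gave 13 for cDC1 against cDC2 (40.3%), 1 for moDC against cDC2 (26.4%) and 10 for pDC against cDC1 (55%). The first date alone gave 8 in cDC1 (11%) and 10 in cDC2 (12.6%), and the second 36 in moDC (25.8%) and 33 in monocytes (23.6%). In the Rag1-/- set DESeq2 gave 2 in cDC1 (3.67%), 57 in pDC (12.8%) and 5 for cDC1 against cDC2 (27.8%). There limma gave 5 in pDC (4.99%), 1 for cDC1 against cDC2 (25%) and 10 for pDC against cDC1 (56.3%), and no scaling gave 5 in pDC (4.38%). An additive sort date gave 0 in moDC (1.11%), 3 in pDC (4.99%) and 1 for cDC1 against cDC2 (24.4%). The fit without pDC gave 7, 12, 4, 71 and 15 (3.94%, 5.58%, 4.25%, 38.1% and 23.7%).

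Leaving out single libraries gave 6 to 10 in pDC and 8 to 24 in monocytes, and in the Rag1-/- set 0 to 1 in cDC1, 1 to 2 in cDC2, 0 in moDC, 3 to 76 in pDC, 0 to 1 for cDC1 against cDC2 and 27 to 73 for pDC against cDC1. Shares of all genes are not given for these fits.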

Other observations

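Rpl3l lies on chromosome 17, next to Msrb1, Hs3st6 and Meiob on one side and Ndufb10 and Rps2 on the other. In cDC2 of NOD, where Rpl3l passed as higher at a low level, Msrb1, Hs3st6 and Meiob also passed as higher than in B6g7, Msrb1 by 0.72 ± 0.22 on the log2 scale (adjusted p = 0.0127), while Ndufb10 fell by 0.36 ± 0.10 (adjusted p = 0.00476) and Rps2 by 0.61 ± 0.08 (adjusted p = 2.79e-08). In pDC, where Rpl3l was most abundant, none of these 3 neighbours passed in either set. These neighbours were looked at after the values of Rpl3l had been seen.

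The mitochondrial ribosomal protein genes, too, stood differently in Rag-sufficient pDC according to the sort date of the cDC1 libraries. Against the mean of both dates 59 of 78 were higher in pDC and 4 lower (33.6% and 37.9% of all genes), with a median log2 difference of 0.42. Against cDC1 of 10.26.2015 8 were higher and 46 lower (30.9% and 33.7%), with a median of -0.28, and against cDC1 of 01.05.2016 75 were higher and 2 lower (34.3% and 41%), with a median of 1.18. Their share of the counts was 0.593% to 0.674% in pDC, 0.603% to 0.631% in cDC1 of the earlier date and 0.320% to 0.333% in cDC1 of the later. Of 34 ribosome biogenesis genes 9 were higher and 19 lower against both dates together, 2 and 18 against the earlier and 10 and 17 against the later. In monocytes against moDC, 22 of these 34 were lower and 2 higher (26.8% and 27.3% of all genes), with a median of -0.54. The difference between these lists was not tested.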
